A study of Mus musculus with 6 samples.

Results

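Long-term hematopoietic stem cells (LT-HSCs) are marked by a set of transcripts for regulators, surface antigens and receptors, and 30 such genes were followed here through RNA-Seq of LSK cells, the Lin-Sca+Kit+ fraction of the bone marrow that holds the stem cells and the multipotent progenitors. The genes were found by symbol among 53445 loci in mm9 coordinates. Where a symbol was listed more than once, as for Angpt1, Cd9 and Vwf, the longest locus was taken. Each of the 30 genes had a locus, and all 30 passed the filter on low counts with 52 to 31682 reads in any library. The libraries came from female C57BL/6 mice of about 12 weeks, 3 OgaVav-Cre and 3 wildtype. In OgaVav-Cre mice a floxed allele of Oga, the gene for the enzyme that removes O-GlcNAc from proteins, is deleted by the Vav-iCre transgene, which acts throughout the blood lineage and is also known to act in some endothelial cells. The controls are labelled wildtype, with no floxed allele or transgene named. The comparison asks whether loss of Oga changes the transcription of genes tied to stem cell maintenance. Each library stands for the sorted cells of 1 mouse, and sorting used antibodies to Kit and to Sca-1, the product of Ly6a. The cells were thus selected on the surface proteins of these 2 members, and how far this limits their RNA levels was not tested.

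LT-HSCs sit at the top of blood formation and mostly rest, while the progenitors that make up the larger share of an LSK sort divide and turn on lineage genes. Their identity is held by transcription factors such as Mecom, Hlf and the Meis1 and Pbx homeobox proteins, and their place in the marrow by receptors shared with endothelium, among them Tek (the angiopoietin receptor Tie2) and Robo4. Cytokines such as thrombopoietin act on them through STAT5, which in turn induces the inhibitors Cish and Socs2. In a sort of mixed cells, these transcripts are read out as an average over the stem cells and their more numerous descendants.

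To show what lies before the start sites of members with like behaviour across libraries, the 250 bases upstream were read from RefSeq windows (GRCm38.p6), which were matched for 24 of the 30 members, 31 windows in all. Angpt1, Esam, Ly6a, Pbx3, Socs2 and Vwf had no entry. The 4 windows below, at chr6:91978715-91978964 (plus strand, Fgd5), chr3:30013205-30013454 (minus strand, 1 of the Mecom starts), chr2:155750967-155751216 (plus strand, Procr) and chr4:115088458-115088707 (plus strand, Pdzk1ip1), belong to 4 of the 6 members with more than 3-fold differences between OgaVav-Cre replicates 2 and 3, and were chosen because they hold a match. The windows of the other 2, Prdm16 and Ifitm1, and a second window of Mecom hold neither motif and are not printed. Capitals mark TGACAG, a core of sites bound by MEIS factors (or its complement CTGTCA), and CAGCTG, an E-box bound by factors of the Tal1 family.
Fgd5: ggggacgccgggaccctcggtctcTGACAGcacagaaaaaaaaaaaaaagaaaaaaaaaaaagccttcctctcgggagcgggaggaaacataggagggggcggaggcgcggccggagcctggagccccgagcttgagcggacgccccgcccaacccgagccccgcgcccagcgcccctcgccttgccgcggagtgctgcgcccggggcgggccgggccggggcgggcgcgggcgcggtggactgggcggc
Mecom: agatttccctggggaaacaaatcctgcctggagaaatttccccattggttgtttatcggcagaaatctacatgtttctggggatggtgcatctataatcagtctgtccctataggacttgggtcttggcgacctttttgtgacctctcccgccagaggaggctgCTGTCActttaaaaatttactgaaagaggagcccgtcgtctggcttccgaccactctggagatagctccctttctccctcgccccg
Procr: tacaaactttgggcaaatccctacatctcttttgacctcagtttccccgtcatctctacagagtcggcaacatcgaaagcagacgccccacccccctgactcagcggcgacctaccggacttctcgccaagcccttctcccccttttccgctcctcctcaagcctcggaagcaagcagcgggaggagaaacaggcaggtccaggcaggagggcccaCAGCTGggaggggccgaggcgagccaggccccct
Pdzk1ip1: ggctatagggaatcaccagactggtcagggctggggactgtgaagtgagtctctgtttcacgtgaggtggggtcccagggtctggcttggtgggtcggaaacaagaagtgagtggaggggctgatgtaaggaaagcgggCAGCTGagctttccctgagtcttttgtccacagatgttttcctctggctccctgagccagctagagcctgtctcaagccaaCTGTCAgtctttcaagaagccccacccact

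On either strand, TGACAG was found in 7 of the 31 member windows (22.6%) and in 15.9% of all 32851 windows. Its holders were Fgd5, Fhl1, Itga2b, Mecom, Mllt3, Pdzk1ip1 and Tek. CAGCTG was found in 8 member windows (25.8%) and in 13.0% of all windows. These were windows of Abcg2, Cd9, Ifitm3, Itga2b, Mllt3, Pdzk1ip1, Procr and Robo4. The ETS core CCGGAA was in 4 member windows (12.9%, against 12.0% of all), and the STAT motif TTCNNNGAA was in 0 of 31 (7.02% of all). TGACAG and CAGCTG overlapped in 0 member windows. A match here is a run of letters and was not tested as a binding site.

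Library totals were between 19318056 and 27064389 reads, so that a floor of 3 reads corresponds to 0.109 to 0.156 CPM (reads scaled to library size with edgeR's TMM factors). Mgea5, the former symbol of Oga on chromosome 19 (minus strand, 45824749 to 45858269), was counted at 104, 109 and 110 reads in OgaVav-Cre replicates 1, 2 and 3 against 3164, 2970 and 2736 in wildtype replicates 1, 2 and 3, a log2 fold change of -5.01 (SE 0.167, adjusted p = 5.88e-05, edgeR), as the labels require. OgaVav-Cre replicate 3 stood apart in genes of lineage-positive cells, which the sort is meant to remove. The summed level of 19 such genes was 837 to 4609 CPM in OgaVav-Cre against 1342 to 2174 CPM in wildtype libraries, and 17 of the 19 were highest in replicate 3 of the OgaVav-Cre libraries. Hba-a1, an alpha globin gene and the one with the most reads, had 10974, 3687 and 44711 reads in OgaVav-Cre against 7523, 5551 and 11852 in wildtype replicates 1, 2 and 3. Among the defining markers Cd3e, Itgam and Ly6g, Ly6g was at 0 in wildtype replicate 1 and the others in no library. The levels of 10 plasma cell genes (a further one, Mzb1, had no locus) also differed between libraries, from 12124 to 112824 CPM in OgaVav-Cre and from 12950 to 56068 CPM in wildtype, with OgaVav-Cre replicate 1 and wildtype replicate 2 highest in all 10 and none at 0. The counts and, for most members, the fold changes are therefore also given without OgaVav-Cre replicate 3. Its removal moved some of these toward 0 or across it and others away from it. Other single libraries moved them as well. Without OgaVav-Cre replicate 2, 23 members were lower and 7 higher, and their median log2 fold change was -0.38. Mecom, Hlf and Tie1 were then at -0.91, -0.81 and -0.76, and at -0.07, -0.12 and -0.0025 without wildtype replicate 2.

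Between the genotypes, the stem cell marker genes differed little against their spread. None of the 30 was called changed (adjusted p below 0.05 and log2 fold change above 1 or below -1 in edgeR), where 0.0318% of the 22032 loci tested were called, and DESeq2's Wald test also called 0 (0.493% of its loci, or 0.822% with no limit on the fold change). At an unadjusted p below 0.05, 1 member passed, Socs2, higher in OgaVav-Cre (10.6% of all loci passed in either direction, 4.38% as higher and 6.27% as lower). It was also the 1 member whose libraries did not overlap between genotypes, against 17.5% of all loci with OgaVav-Cre above in 7.5% and below in 9.97%. By sign alone, 12 members had a higher and 18 a lower fitted level in OgaVav-Cre, where 50.5% of all loci were higher. This tally turned to 19 higher and 11 lower both without OgaVav-Cre replicate 3 and without wildtype replicate 2, and was 9 and 21 when scaled by library totals. The median log2 fold change of the members was -0.09, beside 0.0041 for all loci, and single members ranged from -0.61 (Sult1a1) to 1.03 (Ly6a). Without OgaVav-Cre replicate 3 the median turned to 0.14, and without wildtype replicate 2 to 0.22. In bulk libraries such as these, fewer LT-HSCs among the sorted cells and less RNA of a gene per cell cannot be told apart.

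**Figure D1:**
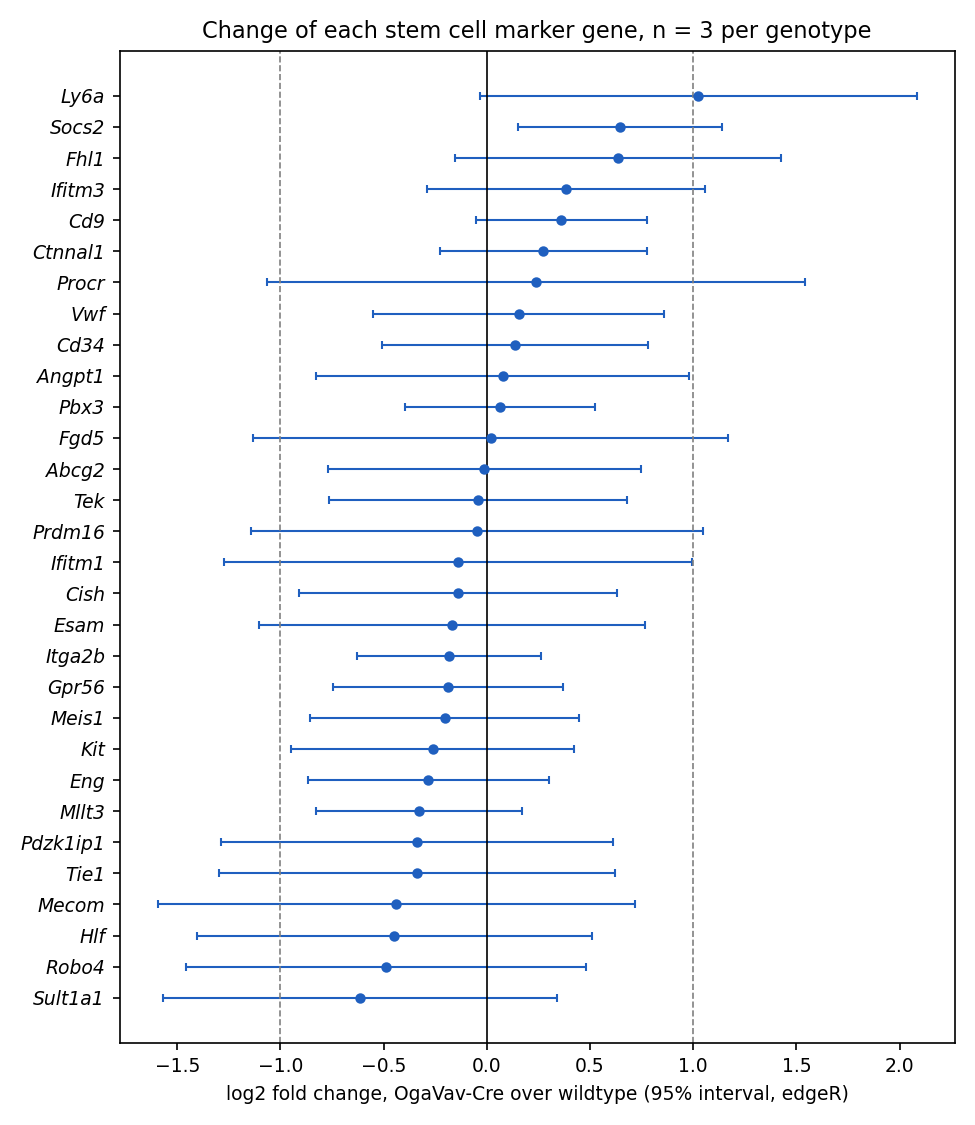
Log2 fold change of OgaVav-Cre over wildtype LSK cells (horizontal axis) for each of the 30 stem cell marker genes, with bars for the 95% interval of the edgeR fit, n = 3 mice per genotype, and dashed lines at -1 and 1. The interval of 29 genes holds 0, Socs2 (0.65) being the exception, and 15 intervals reach past a dashed line.

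How firmly a lack of change can be stated differed between members. The 95% interval lay within -1 to 1 on the log2 scale for 15 of them and reached beyond for the other 15. The median standard error was 0.329 for the members and 0.244 for all loci. For 27 members the highest OgaVav-Cre library differed from the lowest by a larger fold than the genotypes did, and for all 30 this held among the wildtype libraries. The share of all loci for which this held was not counted, so these counts do not set the members apart.

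Per length of locus, the levels of the members differed widely. Gpr56 (Adgrg1), an adhesion G protein-coupled receptor, had the highest level, with 216 ± 63.1 RPKM in OgaVav-Cre and 258 ± 31.2 in wildtype cells (SD, n = 3 for each). In wildtype cells it was followed by Ifitm3 (104 ± 22.8), Ifitm1 (83.8 ± 44.4), Ly6a (73.6 ± 43.9), Hlf (60.4 ± 23.4), Angpt1 (53.4 ± 18.3), Cd34 (52.4 ± 7.27) and Kit (49.5 ± 10.8 RPKM, SD, n = 3 for each). Gpr56 lay above these by more than the SD, while each of the others overlapped its neighbour in this order. At the low end were Tek (1.38 ± 0.38), Fhl1 (1.36 ± 0.545), Ctnnal1 (0.781 ± 0.144), Vwf (0.621 ± 0.128) and Pbx3 (0.475 ± 0.00717 RPKM, SD, n = 3). Fgd5, Procr and Mecom, which mark LT-HSCs closely, had wildtype levels of 2.09 ± 0.973, 8.45 ± 4.69 and 4.25 ± 1.91 RPKM (SD, n = 3), below those of Kit and Cd34, which progenitors share.

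**Figure D2:**
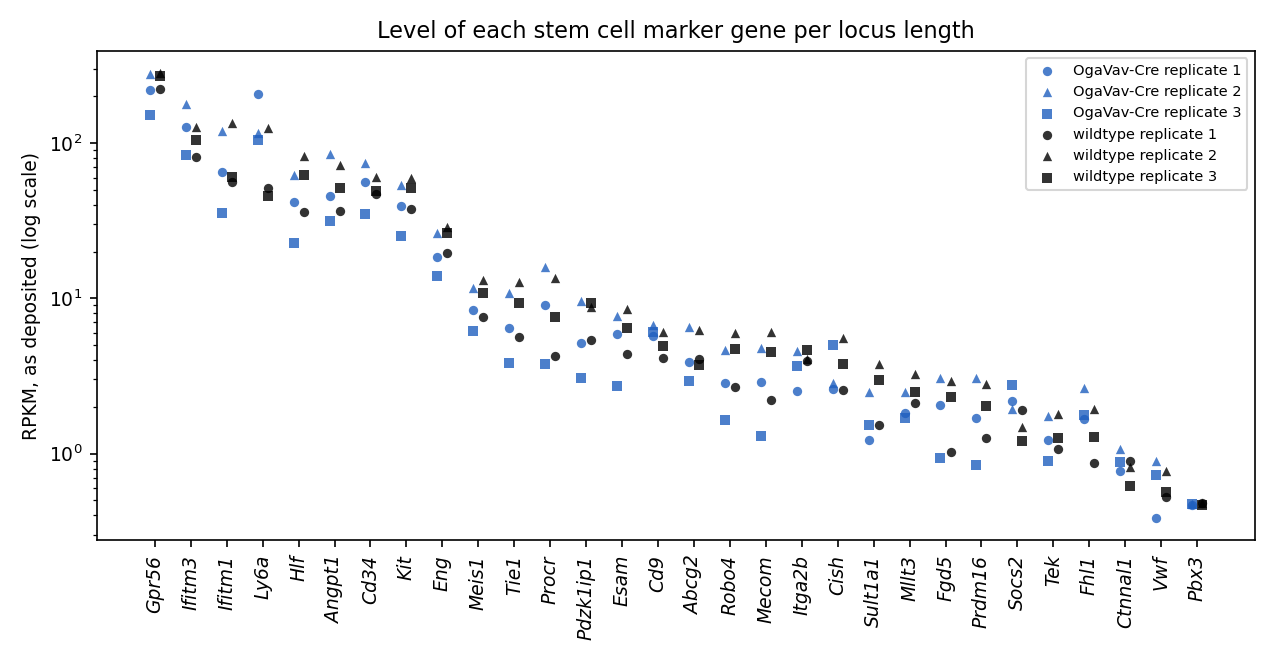
Level of each stem cell marker gene in RPKM as deposited (vertical axis, log scale), 1 point per library, OgaVav-Cre in blue and wildtype in black, ordered by the wildtype mean. The points run from Gpr56 at the top (258 RPKM in wildtype cells) to Pbx3 at the bottom (0.475 RPKM), and the genotypes overlap in every column but that of Socs2.

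Of the 6 transcription regulators, 5 had a lower and 1 a higher fitted level in OgaVav-Cre, and none passed at an unadjusted p below 0.05. Without OgaVav-Cre replicate 3, and also without wildtype replicate 2, the 6 were split, 3 higher and 3 lower. With any other single library left out, 5 stayed lower and 1 higher. Mecom (chromosome 3, minus strand, 29850218 to 30446930), a zinc finger factor needed for LT-HSC self-renewal, had 882, 1496 and 436 reads in OgaVav-Cre against 572, 1444 and 1256 in wildtype replicates 1, 2 and 3. OgaVav-Cre replicate 3 and wildtype replicate 1 were low and the replicates numbered 2 were high, so that the genotypes overlapped. The log2 fold change was -0.44 (SE 0.498, 95% interval -1.60 to 0.72, adjusted p = 0.764 in edgeR), and -0.07 without OgaVav-Cre replicate 3. Hlf, a bZIP factor whose reporter marks stem cells, had 7662, 11744 and 4563 reads in OgaVav-Cre against 5601, 11985 and 10444 in wildtype replicates, with the same libraries low and high (log2 fold change -0.45, SE 0.412, adjusted p = 0.7 in edgeR, or -0.13 without OgaVav-Cre replicate 3). Prdm16, a zinc finger regulator of stem cell maintenance, had 444, 834 and 244 reads against 278, 579 and 488, again with full overlap (log2 fold change -0.05, SE 0.471, or 0.32 without OgaVav-Cre replicate 3). Meis1, the homeobox cofactor of HOX proteins, had 2764, 3945 and 2217 reads in OgaVav-Cre against 2113, 3413 and 3258 in wildtype replicates, a log2 fold change of -0.20 (SE 0.281, or 0.017 without OgaVav-Cre replicate 3). Mllt3 (AF9), a reader of acylated histones in the elongation machinery, was at 41.4 ± 8.25 and 52 ± 12.9 CPM in OgaVav-Cre and wildtype (SD, n = 3), a log2 fold change of -0.33 (SE 0.215). Pbx3, a homeobox partner of MEIS and HOX proteins, varied least of all members, with 139, 145 and 155 reads in OgaVav-Cre against 120, 112 and 127 in wildtype replicates. Its coefficient of variation of CPM was 4.66% and 3.92%, and its log2 fold change of 0.06 had an interval of -0.40 to 0.52.

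The surface antigens were led by Ly6a (chromosome 15, minus strand, 74825307 to 74828337), with 4926, 2877 and 2748 reads in OgaVav-Cre against 1034, 2348 and 1001 in wildtype replicates 1, 2 and 3. OgaVav-Cre replicate 1 was highest of all, but wildtype replicate 2 lay within the OgaVav-Cre libraries, so the genotypes overlapped. Scaled levels were 144 ± 64.7 and 70.9 ± 44.2 CPM (SD, n = 3), a log2 fold change of 1.03 (SE 0.456, 95% interval -0.03 to 2.08, adjusted p = 0.483 in edgeR). Ly6a belongs to a family of near-identical Ly6 genes whose reads may be shared between loci, which leaves its count uncertain. The 2 libraries that were highest for Ly6a in their genotype were also those highest in all 10 plasma cell genes. With the share of immunoglobulin reads as a covariate the log2 fold change was 0.69 (unadjusted p = 0.024, adjusted p = 0.524 in edgeR). It was 0.59 without OgaVav-Cre replicate 1, 1.23 without OgaVav-Cre replicate 3 (unadjusted p = 0.0312, adjusted p = 0.314) and 1.67 without wildtype replicate 2 (unadjusted p = 0.00211, adjusted p = 0.558 in edgeR). The part of plasma cell RNA in this difference was not tested beyond these values.

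Kit, the stem cell factor receptor and the other gate antigen, had 9762, 13705 and 6884 reads in OgaVav-Cre against 7932, 11601 and 11771 in wildtype replicates, and its log2 fold change of -0.26 had an interval of -0.95 to 0.42 and was -0.0059 without OgaVav-Cre replicate 3. Procr (chromosome 2, plus strand, 155576853 to 155581214), the protein C receptor EPCR by which LT-HSCs are often isolated, had 520, 939 and 239 reads in OgaVav-Cre against 207, 613 and 400 in wildtype replicates. The spread between libraries of 1 genotype reached 4.26-fold here, the widest of the 30 members, and the genotypes overlapped (log2 fold change 0.24, SE 0.561, 95% interval -1.06 to 1.54). Its sign changed with single libraries, being 0.63 without OgaVav-Cre replicate 3 and -0.30 without OgaVav-Cre replicate 2. Cd34, a sialomucin that rises as stem cells become progenitors, was at 473 ± 171 and 431 ± 70.5 CPM (SD, n = 3, log2 fold change 0.14, SE 0.277, or 0.40 without OgaVav-Cre replicate 3). Cd9, a tetraspanin, was among the few members with a narrow OgaVav-Cre spread, at 33.4, 35.9 and 32.0 CPM, against 21.2, 32.7 and 25.0 CPM in wildtype. Only wildtype replicate 2 reached into the OgaVav-Cre range, and the log2 fold change was 0.36 (SE 0.179, adjusted p = 0.511 in edgeR). Esam, an adhesion molecule shared with endothelium, Gpr56, and Itga2b, the CD41 integrin chain of megakaryocytes and early stem cells, had log2 fold changes of -0.17, -0.19 and -0.18 with overlapping libraries. Without OgaVav-Cre replicate 3 these were 0.17, 0.0358 and -0.17.

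Among the receptors shared with endothelium and their ligand, 4 of 5 had a lower fitted level in OgaVav-Cre, or 3 of 5 without OgaVav-Cre replicate 3. None passed at an unadjusted p below 0.05 in either fit. Without wildtype replicate 2, 3 of 5 were also lower, and all 5 were lower without OgaVav-Cre replicate 2 or without wildtype replicate 1. Angpt1, the ligand of Tek, had 6732, 13020 and 5148 reads in OgaVav-Cre against 4550, 8496 and 6992 in wildtype replicates, a log2 fold change of 0.08 (SE 0.389, or 0.36 without OgaVav-Cre replicate 3). Tek itself had 244, 358 and 196 reads against 181, 285 and 233 (log2 fold change -0.04, SE 0.31, or 0.18 without that library), and both genes were highest in the replicates numbered 2. The related receptor Tie1 was at 45.2 ± 22.1 and 57.2 ± 23.4 CPM, Eng, a coreceptor for TGF-beta ligands, at 93.5 ± 29.4 and 114 ± 23 CPM, and Robo4, a roundabout receptor, at 18.8 ± 9.24 and 26.4 ± 10.3 CPM in OgaVav-Cre and wildtype cells (SD, n = 3). Their log2 fold changes were -0.34, -0.28 and -0.49, and -0.0288, -0.0674 and -0.17 without OgaVav-Cre replicate 3. In the angiopoietin receptor pathway, 7 of 10 further genes were tested, 2 with a higher and 5 with a lower fitted level (median log2 fold change -0.25). At an unadjusted p below 0.05 in edgeR, 1 passed, as higher (4.38% of all loci). This was Dok2, an adaptor that binds activated Tek, with 1082, 1283 and 935 reads in OgaVav-Cre against 546, 570 and 754 in wildtype replicates (log2 fold change 0.61, SE 0.181, adjusted p = 0.412 in edgeR). Every OgaVav-Cre library lay above every wildtype one for Dok2 (7.5% of all loci) and below for 1 other gene (9.97%).

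Endothelial cells share this receptor group, so 15 genes of those cells were followed beside it. Their summed level was 163 to 189 CPM in OgaVav-Cre against 158 to 178 CPM in wildtype libraries, and the defining markers Cdh5, Kdr, Plvap and Stab2 had reads in every library. Of the 13 tested, none passed at an unadjusted p below 0.05. Pecam1 had the most reads (log2 fold change -0.01), and the lowest p-values were those of Ptprb, a phosphatase that acts on Tek (log2 fold change -0.84, adjusted p = 0.492), Kdr, a VEGF receptor (0.61, adjusted p = 0.731) and Plvap (0.31, adjusted p = 0.747 in edgeR). Kdr had 285 reads in OgaVav-Cre replicate 3 and 40 to 88 in the other libraries. Of the 13 tested endothelial genes, 8 were highest and 4 lowest of their genotype in that same library, where the 5 members of the receptor group were lowest. The part of endothelial RNA in the levels of these members was not tested.

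OgaVav-Cre replicate 2 was highest and replicate 3 lowest of the genotype for 22 members (22% of all loci). The inhibitors of cytokine signalling were among the 8 members for which this did not hold. In wildtype cells Cish was lowest in replicate 1 and highest in replicate 2, as most members were, and Socs2 was not. Socs2 (chromosome 10, minus strand, 94847996 to 94879811), which damps growth hormone and cytokine receptors, had 775, 711 and 1076 reads in OgaVav-Cre against 573, 417 and 392 in wildtype replicates 1, 2 and 3. In CPM, the OgaVav-Cre libraries were at 34.4, 28.1 and 39.3 and the wildtype ones at 26.9, 21.6 and 16.6, so the lowest of the former lay just above the highest of the latter. The log2 fold change was 0.65 (SE 0.212, 95% interval 0.15 to 1.14, unadjusted p = 0.0167, adjusted p = 0.414 in edgeR's quasi-likelihood fit). Leaving out each library in turn kept it between 0.48 and 0.83, and the unadjusted p was 0.0528 without wildtype replicate 3. It also missed 0.05 in the 3 fits to RPKM, at 0.0505 to 0.0609, where Ly6a was the 1 member that passed. Cish, the other STAT5-induced inhibitor, had 470, 529 and 992 reads in OgaVav-Cre against 393, 793 and 626 in wildtype replicates, with no separation (log2 fold change -0.14, SE 0.332, or -0.45 without OgaVav-Cre replicate 3). Like Socs2 it was highest in OgaVav-Cre replicate 3 of its genotype, as were 35.6% of all loci. Of 11 further STAT5 response genes, 1 passed an unadjusted p of 0.05 as higher (4.38% of all loci) and 2 as lower (6.27%). The median log2 fold change of the 11 was 0.03. Ccnd2, a G1 cyclin, had 10781, 11482 and 8457 reads in OgaVav-Cre against 6146, 6119 and 6343 in wildtype replicates (log2 fold change 0.51, adjusted p = 0.439). The survival kinases Pim1 and Pim2 lay on the other side, at log2 fold changes of -0.69 (adjusted p = 0.412) and -0.53 (adjusted p = 0.468, edgeR). The genes of this list past the unadjusted cutoff lay on both sides, and the response as a whole was not tested.

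Ifitm1 and Ifitm3, interferon-inducible membrane proteins that block viral entry and are present in many stem cells, had overlapping libraries in both genotypes. Ifitm3 had 2304, 3381 and 1681 reads in OgaVav-Cre against 1257, 1831 and 1755 in wildtype replicates, a log2 fold change of 0.38 (SE 0.29, adjusted p = 0.643), which became 0.64 (unadjusted p = 0.0202, adjusted p = 0.285 in edgeR) without OgaVav-Cre replicate 3. Ifitm1 had 2005, 3792 and 1212 against 1461, 3291 and 1716 reads, a log2 fold change of -0.14 (SE 0.488), which was 0.20 without OgaVav-Cre replicate 3 and 0.42 without wildtype replicate 2. Reads may be shared within the family, so these counts are uncertain. In the Ifitm family and the interferon response, 11 other genes were tested. At an unadjusted p below 0.05 in edgeR, 3 passed as higher in OgaVav-Cre (4.38% of all loci) and 0 as lower (6.27%). These were Isg15, Irf7 and Bst2, with log2 fold changes of 0.70, 0.79 and 0.95 and adjusted p-values of 0.428, 0.444 and 0.453 in edgeR. Irf7 and Bst2 were highest in OgaVav-Cre replicate 3, at 2482 and 3010 reads, and Isg15 was lowest of its genotype there, at 144 reads.

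The remaining 7 markers had levels of 3.07 to 26.3 CPM as genotype means. Fgd5 (chromosome 6, plus strand, 91928872 to 92026009), a guanine nucleotide exchange factor used to label LT-HSCs, had 376, 575 and 188 reads in OgaVav-Cre against 158, 423 and 387 in wildtype replicates (log2 fold change 0.02, SE 0.495, or 0.38 without OgaVav-Cre replicate 3). Abcg2, the efflux pump behind the side population, had 546, 945 and 456 against 485, 690 and 483 reads (log2 fold change -0.01, SE 0.327, or 0.23 without that library). For both, means of the genotypes nearly coincided while single OgaVav-Cre libraries were more than 2-fold apart. Fhl1, a LIM domain protein, had 178, 290 and 207 reads in OgaVav-Cre against 78, 163 and 124 in wildtype replicates, and wildtype replicate 2 alone reached into the OgaVav-Cre range (log2 fold change 0.63, SE 0.34, adjusted p = 0.534 in edgeR). Sult1a1, a sulfotransferase, had the fewest reads of the 30 genes, 52, 109 and 71 against 55, 127 and 117 (log2 fold change -0.61, SE 0.411, adjusted p = 0.599). Vwf, the adhesive protein of platelet-biased stem cells, had 179, 431 and 371 reads against 208, 282 and 243, Ctnnal1 (alpha-catulin) 234, 334 and 293 against 231, 197 and 173, and Pdzk1ip1, a small membrane protein, 259, 495 and 169 against 228, 349 and 431. Their log2 fold changes were 0.15, 0.27 and -0.34, the last being -0.0090 without OgaVav-Cre replicate 3.

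Vwf and Itga2b are also genes of megakaryocytes, and 15 further genes of that lineage were set beside them. Their summed level was 482 to 559 CPM in OgaVav-Cre against 491 to 669 CPM in wildtype libraries, with Gp6 at 0 reads in 4 of 6 libraries, while the defining markers Pf4, Gp1ba, Gp9 and Ppbp were at 0 in none. Of the 14 tested, Gp5, a platelet glycoprotein, passed an unadjusted p of 0.05 as higher (149, 240 and 222 against 122, 69 and 110 reads, log2 fold change 0.79, adjusted p = 0.412) and Selp (P-selectin) as lower (243, 480 and 194 against 529, 470 and 485, log2 fold change -0.92, adjusted p = 0.437 in edgeR). Of all loci, 4.38% passed this cutoff as higher and 6.27% as lower. Tubb1, the platelet beta tubulin, had 293 reads in OgaVav-Cre replicate 3 and 6 to 26 elsewhere. Rap1b, with the most reads, differed by 0.09 on the log2 scale.

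What members shared was their order between libraries within a genotype, a pattern chosen after their values were seen. OgaVav-Cre replicate 2 was the highest of its genotype for 26 of 30 members (34.6% of all loci) and replicate 3 the lowest for 24 (39.1%). Both held for 22 members, against 22% of all loci. In wildtype cells, replicate 2 was the highest for 26 members (33.7%) and replicate 1 the lowest for 25 (35.4%). All of OgaVav-Cre replicate 2 highest, replicate 3 lowest and wildtype replicate 1 lowest held for 21 members, against 8.86% of all loci. The median fold of OgaVav-Cre replicate 2 over replicate 3 was 2.07 for the members and 1.01 for all loci, and that of wildtype replicate 2 over replicate 1 was 1.77 and 1.00. Because the members of such a list are expressed in the same cells of the same libraries, they are not independent of each other.

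**Figure D3:**
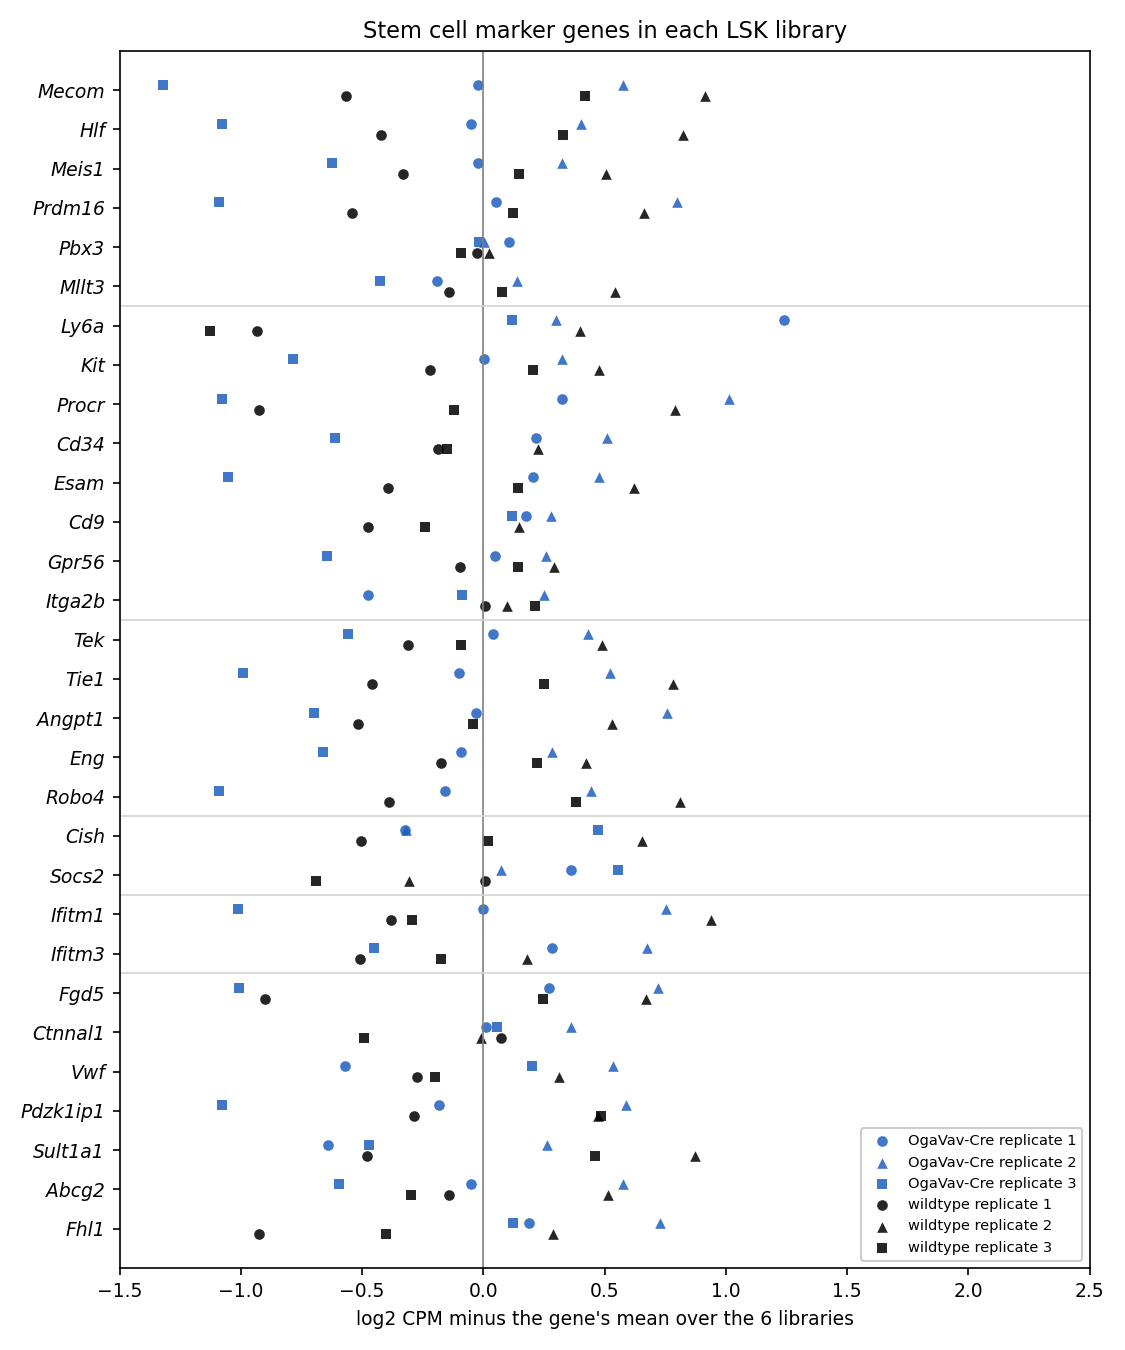
Level of each stem cell marker gene in every library, as log2 CPM minus the mean of the gene over all 6 libraries (horizontal axis), OgaVav-Cre in blue and wildtype in black, with a circle, triangle and square for replicates 1, 2 and 3 and grey lines between groups of genes by role. Triangles of both colours lie to the right in most rows, and blue squares and black circles to the left, with 22 members highest in OgaVav-Cre replicate 2 and lowest in replicate 3 of that genotype.

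The size of this shift differed among the 22 members, from 1.12-fold for Cd9 to 4.26-fold for Procr between OgaVav-Cre replicates 2 and 3. It was 3.72-fold for Mecom, 3.71-fold for Prdm16, 3.39-fold for Ifitm1, 3.32-fold for Fgd5 and 3.18-fold for Pdzk1ip1. Fold differences between wildtype replicates 2 and 1 were 2.79 for Mecom, 2.31 for Prdm16, 2.49 for Ifitm1, 2.96 for Fgd5 and 1.69 for Pdzk1ip1. The members that did not follow were Pbx3, Ly6a, Itga2b, Cish, Socs2, Ctnnal1, Vwf and Sult1a1. Scaled by library totals or by the deposited RPKM, 20 members followed (18.5% and 20.5% of all loci), and with lineage-positive and plasma cell genes left out of the totals 22 did.

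**Figure D4:**
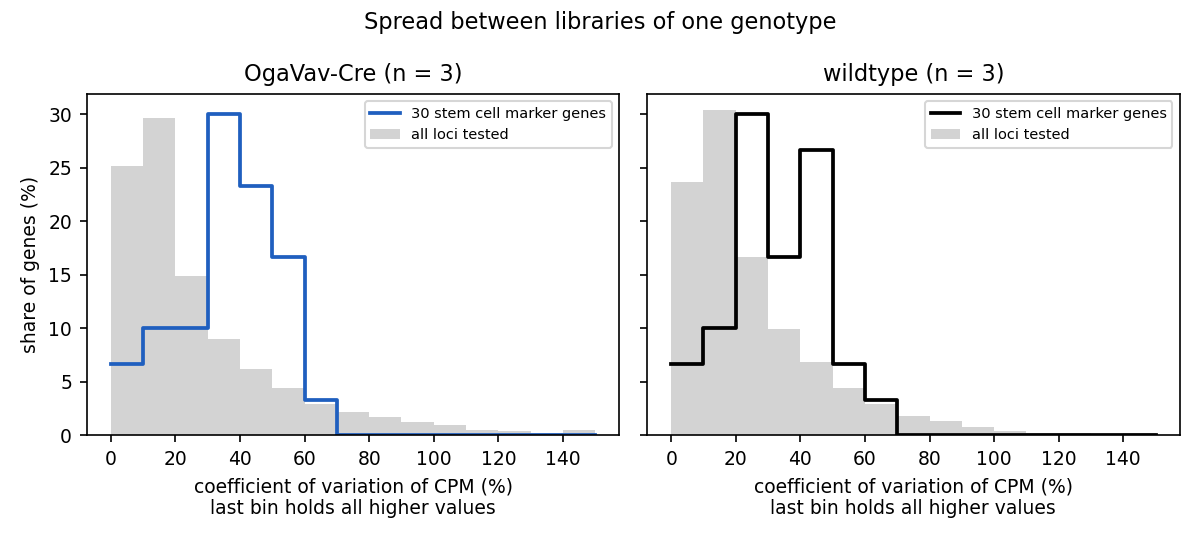
Distribution of the coefficient of variation of CPM between the 3 libraries of a genotype (horizontal axis, bins of 10%, the last bin open) for the 30 stem cell marker genes (line) and for all loci tested (grey), as a share of each set (vertical axis). The members lie to the right of all loci, with medians of 36.1% in OgaVav-Cre and 30.7% in wildtype cells against 17.9% and 18.3%.

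The members also varied more between libraries of 1 genotype than most loci. Their median coefficient of variation was 36.1% among OgaVav-Cre and 30.7% among wildtype libraries, where all loci had medians of 17.9% and 18.3%. The highest library exceeded the lowest more than 2-fold for 17 members in OgaVav-Cre (25.0% of all loci) and for 14 in wildtype cells (23.3%). Their summed level was 3707, 4650 and 2240 CPM in OgaVav-Cre replicates 1, 2 and 3 and 2916, 4778 and 3683 CPM in wildtype replicates 1, 2 and 3.

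Genes outside the list were compared for the same order. Among 30 other stem cell genes, OgaVav-Cre replicate 2 was highest for 21 and replicate 3 lowest for 23, and wildtype replicate 1 was lowest and replicate 2 highest for 24 each. Their median log2 fold change was -0.16. Among them Ndn (necdin) and Hoxb4, a homeobox factor, were at -1.28 (adjusted p = 0.478) and -0.43 (adjusted p = 0.52 in edgeR). The 11 tested partner genes of Meis1 had a median of -0.39 and ranged from -0.67 to 1.20. At an unadjusted p below 0.05 in edgeR, 1 of them passed as higher (4.38% of all loci) and 3 as lower (6.27%). Hoxa5 was at a log2 fold change of -0.67 (adjusted p = 0.437) and Pbx4 at -0.62 (adjusted p = 0.439 in edgeR).

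Lymphoid-primed and multipotent progenitor genes showed the opposite order. Of 15, OgaVav-Cre replicate 2 was lowest for 11 (7225 of all 22032 loci) and replicate 3 highest for 11 (7844 loci). Wildtype replicate 1 was highest for 10 (7584 loci) and replicate 2 lowest for 10 (7244 loci). Their summed level was 2418, 1995 and 2774 CPM in OgaVav-Cre against 2838, 2059 and 2294 CPM in wildtype replicates 1, 2 and 3, and Flt3, Il7r, Dntt and Cd48, their defining markers, were at 0 in none. Between the genotypes none passed an unadjusted p of 0.05, and the median log2 fold change was 0.07. Dntt, the terminal transferase of early lymphoid cells and the gene with the most reads, was at -0.06. Those with the lowest p were Rag1, a recombinase of lymphoid progenitors (-1.15, adjusted p = 0.492), Ccr9 (1.10, adjusted p = 0.496) and Ly6d (0.55, adjusted p = 0.558 in edgeR). Lineage-positive genes stood opposite to the members in OgaVav-Cre, with 17 of 19 lowest in replicate 2 and 17 highest in replicate 3. In wildtype cells 14 were lowest in replicate 2, but 11 were highest in replicate 3 and 7 in replicate 1. Of the 19 genes Cd4 passed an unadjusted p of 0.05 as higher (4.38% of all loci). It had 469, 347 and 1993 reads in OgaVav-Cre against 375, 206 and 287 in wildtype replicates (log2 fold change 1.41, adjusted p = 0.46 in edgeR). Klrb1c (-1.08) and the beta globin gene Hbb-b1 (1.15) came next by p, with adjusted values of 0.533 and 0.579. The plasma cell genes had a median of 0.68 with none past an unadjusted p of 0.05, Tnfrsf17 (1.64), Txndc5 (1.08) and Xbp1 (0.68) having the lowest p and Ighm (1.07) the most reads. The part that differing shares of these cells played in the members' order was not tested.

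**Figure D5:**
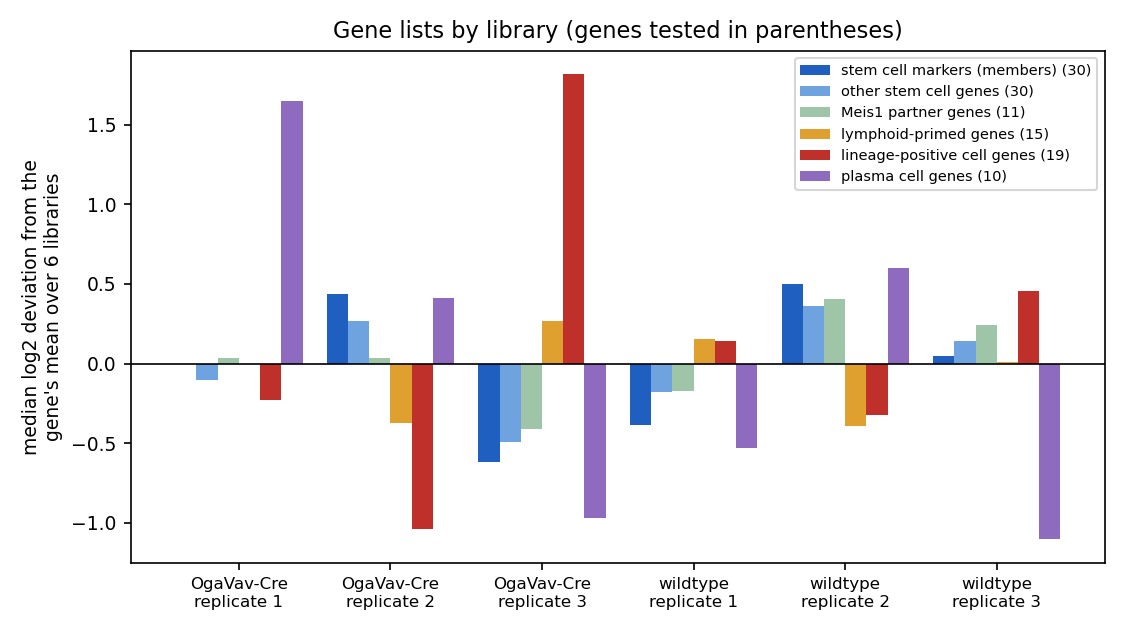
Median over the genes of a list of the log2 deviation from the gene's mean over all 6 libraries (vertical axis), for 6 lists in each library. The stem cell markers and the other stem cell genes lie above 0 in OgaVav-Cre replicate 2 and wildtype replicate 2 and below 0 in OgaVav-Cre replicate 3 and wildtype replicate 1, where the lymphoid-primed genes lie on the other side in each of these libraries.

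Counts of 17 members could include reads of another locus, since these overlap a second entry of the table, for 13 on the opposite strand, and whether strand was used in the counting is not stated. For Eng the overlapping entry carried nearly the same reads, and for Prdm16 a same-strand entry inside the locus carried 505, 811 and 317 reads in OgaVav-Cre against 330, 552 and 473 in wildtype replicates.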

How the data were processed

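Poly(A) RNA of LSK cells was sequenced as single-end 50 bp reads from 3 OgaVav-Cre and 3 wildtype mice, and the submitters' processing notes name CASAVA 1.8.2 and mm9. The authors aligned the reads and summarized them per locus with Genomatix, and deposited raw counts and, made from them, RPKM. The aligner, the annotation and their versions are not given in the sources used here. Columns of the authors' fold changes, p-values and normalized expression were not used. Libraries were assigned by their labels.

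Counts were fitted over all loci in R 4.3.3 with edgeR 4.0.16 (TMM, filterByExpr by genotype, glmQLFit and glmQLFTest, legacy = TRUE), with Benjamini-Hochberg adjustment over the 22032 loci left. Intervals are 95% and two-sided. The p-values weigh the genotype difference against the spread between mice, as estimated with information shared over all loci tested. An exact permutation test of 3 against 3 cannot go below 0.1 and was not run. Alternatives were DESeq2 1.42.0, limma 3.58.1 (voom, and RPKM on a log2 scale with pseudocounts of 0.1 and 1), other scalings, filters and dispersions, the immunoglobulin share (Ighm, Igkc and Igj) as covariate, the replicate block and each library left out. Other totals for the order of libraries were added after seeing the data. The edgeR fit was run on simulated counts, drawn for each locus independently, with planted changes larger than that of any member. This does not show its power for the members. Depth per library is given above. Intervals of the fold changes come from the edgeR fit and include the spread between libraries.

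The members and lists were chosen with earlier results of these data known. Named genes are the 30 members, Mgea5, up to 3 genes with the smallest p in each list and, for lists of other cells, the gene with the most reads. Cell type markers named were set with the lists, and Gp6 and overlapping loci were named after their values were seen. Values of a few genes of the lists are not reported here.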

Additional observations from a re-analysis of the deposited data

How the results depend on the processing

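In all 19 settings, 0 of the 30 members was called changed. At an unadjusted p below 0.05, 1 member passed in the reported fit, 2 with the immunoglobulin share as covariate (9.08% of all loci in that fit), 2 in limma-voom (10.9%), 2 without the filter on low counts (7.90%), 4 with the replicate block (12.4%; Ly6a, Cd9, Socs2 and Fhl1, adjusted p from 0.362 to 0.398), and 0 to 4 with a library left out. It was 0 without wildtype replicate 3 (5.39%), 2 without wildtype replicate 1 (14.5%, Sult1a1 lower), 3 without OgaVav-Cre replicate 3 (14.3%) and 4 without wildtype replicate 2 (7.51%). Of the 19 settings, Socs2 passed in 15. Members whose genotypes did not overlap numbered 1 to 5 with a library left out, where 23.3 to 35.4% of all loci did not overlap. They were 3 when wildtype replicate 1 (35.4%) or replicate 2 (25.3%) or 3 (33.8%) of OgaVav-Cre was dropped and 5 without wildtype replicate 2 (26.3%). The median log2 fold change of the members was -0.38 to 0.22 over those fits, and -0.20 with library totals, which moved all loci by -0.11. With each library left out, values that crossed 0 ranged from -0.37 to 0.28 for Abcg2, -0.38 to 0.39 for Angpt1, -0.11 to 0.40 for Cd34, -0.45 to 0.22 for Cish, -0.48 to 0.17 for Esam, -0.38 to 0.38 for Fgd5, -0.38 to 0.0358 for Gpr56, -0.65 to 0.42 for Ifitm1, -0.44 to 0.0183 for Meis1, -0.58 to 0.32 for Prdm16, -0.30 to 0.78 for Procr, -0.30 to 0.23 for Tek and -0.10 to 0.40 for Vwf. Some members near 0 crossed it in other settings. Angpt1 was at -0.0496 with RPKM and a pseudocount of 0.1, filtered or not, -0.0477 with 1, -0.0506 with the immunoglobulin covariate and -0.0395 with library totals. Fgd5 was at -0.0731, -0.0447, -0.236 and -0.111 in these, -0.0259 in limma-voom and -0.0101 with the replicate block. Pbx3 was at -0.00463 and -0.00182 with RPKM and -0.0568 with library totals. With the immunoglobulin covariate, Cd34 was at -0.0306 and Procr at -0.0206. The causes were not tested. No sign of these genes should be read from the fold change.

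Replicate numbers were not taken to pair the mice, since no label names a pairing. The deviations of same-numbered libraries correlated at -0.0814, 0.260 and 0.316, so that OgaVav-Cre replicates 2 and 3 correlated best with their own number and replicate 1 with wildtype replicate 2 (0.206). Deviations from a mean of 3 libraries depend on each other, so these values cannot settle whether the mice were paired. The replicate block changed no call. With 3 mice per genotype and the spread of these genes, intervals of 15 members still hold a 2-fold difference.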
